A study of Mus musculus with 24 samples.

Results

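The major urinary protein genes are 10 of the 46093 gene symbols that each of the 2 count tables of mouse liver holds: Mup1, Mup2, Mup3, Mup7, Mup9, Mup11, Mup14, Mup17, Mup20 and Mup21. They were chosen by symbol, and all 10 passed the filter on low counts in both tables. Liver RNA came from C57BL/6 mice in 8 groups of 3 libraries, set by sex, genotype and diet. Cyp2b-null mice, which carry a combined deletion of Cyp2b9, Cyp2b10 and Cyp2b13, and wild type (WT) mice received a high fat diet with 60% fat (HFD) or normal chow (ND) for 10 weeks. The groups of each sex were Cyp2b-null on HFD, WT on HFD, Cyp2b-null on ND and WT on ND. The labels give neither age nor whether each library is from an animal of its own, so every p-value measures the spread between libraries, which may be technical. Males went with 1 set of kits (RNeasy Plus Universal for extraction, TruSeq Total RNA for libraries) and females with another (Trizol and NEB Next Ultra), which means that an effect of sex and one of kit cannot be told apart.

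Major urinary proteins are small secreted lipocalins, barrel-shaped carriers that are made in the liver, pass into the urine and bind volatile pheromones. Their transcription in mouse liver is driven by the pulsed growth hormone secretion of males, which acts through STAT5b, and it is also raised by glucocorticoids. Male mice are known for far higher hepatic Mup transcript levels than females. The family lies in 1 cluster of many recently duplicated genes, so short reads often match several of them. Mup20 encodes darcin, the male pheromone that attracts females. Mup1 has been studied as a circulating protein that affects glucose and lipid metabolism in obese mice.

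In the GRCm38 annotation (GENCODE) all 10 members are protein-coding genes on the minus strand of chromosome 4, with Mup7 at chr4:60066469-60070475, Mup2 at chr4:60135932-60154289, Mup9 at chr4:60418046-60421952, Mup1 at chr4:60498012-60501960, Mup11 at chr4:60658466-60662411, Mup14 at chr4:61300023-61304000, Mup17 at chr4:61591929-61595871, Mup20 at chr4:62050234-62054158, Mup3 at chr4:62083476-62087342 and Mup21 at chr4:62147932-62150863. Their transcripts fall into 2 kinds by sequence. Mup1, Mup2, Mup7, Mup9, Mup11, Mup14 and Mup17 are 98.4 to 99.6% identical to each other, and no more than 21.9% of the 50-base words of any of them (Mup17) occur in no other Mup transcript. For Mup2 that share is 0%, so no read of that length could be assigned to it alone. Mup3, Mup20 and Mup21 are 86.1 to 91.2% identical to those 7, and Mup3 and Mup21 are 96.1% identical to each other. Of their 50-base words, 84.4% in Mup3, 80.7% in Mup21 and 49.9% in Mup20 occur in no other Mup transcript. How the authors counted reads that match several genes is not given in the sources used here, so the split of counts between single members, above all among the 7 near-identical ones, is uncertain, and the sum over the members is given beside them.

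Upstream of the starts that RefSeq gives, the members can be compared base by base. The 40 bases shown here end directly before a run of 9 letters that the RefSeq (GRCm38.p6) promoter windows of 8 members share, and they are shown because they set Mup3 and Mup21 apart from the near-identical members. Capitals mark letters that differ from Mup7.
Mup7: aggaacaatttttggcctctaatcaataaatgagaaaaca
Mup2: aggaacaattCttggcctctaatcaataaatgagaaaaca
Mup3: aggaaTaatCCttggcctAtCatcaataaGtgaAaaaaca
Mup9: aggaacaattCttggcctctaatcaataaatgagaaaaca
Mup11: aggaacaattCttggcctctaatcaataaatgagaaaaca
Mup14: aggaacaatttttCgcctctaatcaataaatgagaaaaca
Mup17: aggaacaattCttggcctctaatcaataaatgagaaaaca
Mup21: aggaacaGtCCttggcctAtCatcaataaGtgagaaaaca
These stretches lie on the minus strand, Mup7 at chr4:60070476-60070515, Mup2 at chr4:60139991-60140030, Mup3 at chr4:62087399-62087438, Mup9 at chr4:60422090-60422129, Mup11 at chr4:60662502-60662541, Mup14 at chr4:61304082-61304121, Mup17 at chr4:61595962-61596001 and Mup21 at chr4:62150917-62150956. For Mup2 the GENCODE gene given above reaches further upstream, so that its stretch lies inside that gene. Those of Mup2, Mup9, Mup11 and Mup17 are identical to each other and differ from that of Mup7 by 1 letter, as does that of Mup14 at another place. Mup21 differs from Mup7 by 6 letters and Mup3 by 7, and these 2 share most of their differences. In the whole windows, from 250 bases before to 50 after each annotated start and on both strands, AGAACA, the core letters of glucocorticoid receptor sites, occurred in Mup3 and Mup21, that is in 2 of 8 windows, and in 19% of 32817 windows of all genes. The STAT5 motif TTCNNNGAA, TATAAA and the C/EBP motif TTGCGCAA occurred in 0 of 8 windows and in 8.29%, 13.6% and 0.183% of all windows. No match says only that these letters are not in this window. The stretch shown ends at the annotated start in Mup7 and 75 (Mup21) to 137 (Mup9) bases before it in the others, so windows set by the start cover shifted parts.

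The targeted genes matched the labels in females and did not settle them in males. Cyp2b13 had 0 counts in all 6 female Cyp2b-null libraries, against 565 to 1096 counts in WT on HFD and 675 to 1138 in WT on ND. In 6 female libraries the genotype field contradicts the sample title, and the titles, which the Cyp2b13 counts match, were followed. In males Cyp2b13 had 37 to 64 counts in libraries labelled Cyp2b-null on HFD, against 40 to 85 in WT on HFD, and 7 to 89 counts in those labelled Cyp2b-null on ND, against 23 to 33 in WT on ND. Cyp2b10 ran with the label on ND, with 0.535 to 0.981 CPM (TMM-scaled counts per library total) in livers labelled Cyp2b-null and 2.56 to 8.39 CPM in WT livers, and overlapped on HFD, with 0.394 to 2.32 CPM in livers labelled Cyp2b-null and 0.527 to 1.46 CPM in WT livers. Cyp2b9 ran against it on ND, with 1.56 to 3.86 CPM in livers labelled Cyp2b-null and 0.0865 to 0.342 CPM in WT livers, and overlapped on HFD, with 1.83 to 7.57 CPM in livers labelled Cyp2b-null and 4.67 to 36.1 CPM in WT livers. The males are therefore called labelled Cyp2b-null, and every male direction between genotypes rests on the label.

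A single male library stands apart, the first of the group labelled Cyp2b-null on ND. Mitochondrial genes took 32.8% of its counts, against 3.51 to 7.91% in the other 11 male libraries. The summed level of 9 hepatocyte markers (Alb, Apoa1 and others) was 48254 CPM in it and 79146 to 167211 CPM in the others, and that of 8 lymphocyte markers 64.0 CPM, against 4.01 to 10.6. Male levels, comparisons and correlations between members are given with and without it. Permutation tests and likeness to other genes are given only without it. The male libraries held 8282510 to 20176050 counts each and the female libraries 2005120 to 2661836. No hepatocyte marker was at 0 in all libraries of a group. The female libraries fell on 2 sides of a first principal component that held 29.2% of the variance and cut across the groups, and the main female differences are also given with a term for these sides. In these bulk samples fewer hepatocytes and less RNA per cell cannot be told apart.

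Taken as a sum, the 10 members made up 0.154 to 0.511% of the counts of the 11 other male libraries, 0.0350% of the divergent one and 0.0517 to 0.128% of the female libraries. The summed level in males was 2669, 3986 and 5401 CPM in the libraries labelled Cyp2b-null on HFD, 4255, 3894 and 1409 in WT on HFD, 388, 4309 and 1918 in those labelled Cyp2b-null on ND, where the first value is the divergent library, and 2430.1, 4009 and 4643 in WT on ND. All 4 groups overlapped, and the spread within each was wide even apart from the divergent library. In females it was 1231, 735 and 477 CPM in Cyp2b-null on HFD, 1321, 780.0 and 643 in WT on HFD, 1158, 922 and 998 in Cyp2b-null on ND and 986, 1184 and 510.2 in WT on ND. These groups overlapped too, and each female library was below the lowest of the 11 male libraries, a gap in which sex and kit cannot be told apart. The male levels of 7 members are also summed over more than 1 row, and the female levels of 0 members. With first rows alone, the male library at 1409 CPM falls within the female range, so the gap rests on the summing. Over all Mup symbols the sexes overlapped, at 979 to 4111 CPM in the female libraries and 2048 to 6998 CPM in the 11 male ones. The members held 68.8 to 80.2% of the counts of all 21 Mup and 13 Mup pseudogene symbols in those 11 male libraries and 28.8 to 52.1% in the females, where Mup10, a family gene outside the 10, reached 112 to 859 CPM.

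In males Mup7 had the highest level per length. It had 1271, 2029 and 2419 CPM in libraries labelled Cyp2b-null on HFD, 2251, 1623 and 509 in WT on HFD, 5.89, 1736 and 478 in those labelled Cyp2b-null on ND and 600.3, 2359 and 2449 in WT on ND. Besides the divergent library, which had 44 counts, 1 library of each group other than the labelled Cyp2b-null on HFD stood well below its fellows, and the groups overlapped. Mup17 had 269.6, 359 and 635 CPM in libraries labelled Cyp2b-null on HFD, against 231, 273 and 70.0 in WT on HFD, and 16.2, 471 and 147 in those labelled Cyp2b-null on ND, against 98.1, 147 and 181 in WT on ND. Its highest library was labelled Cyp2b-null on HFD, and the genotypes overlapped on both diets. Mup1 had 147, 263 and 421 CPM in libraries labelled Cyp2b-null on HFD, 262, 174 and 66.1 in WT on HFD, 8.03, 209 and 47.6 in those labelled Cyp2b-null on ND and 85.7, 182 and 179 in WT on ND. The libraries low in Mup7 were also those low in Mup1. Mup11 had 165 to 613 CPM over the 11 libraries and 121 in the divergent one. Over the same 11 libraries Mup2 ran from 33.5 to 127 CPM, Mup9 from 17.5 to 70.3 and Mup14 from 14.4 to 61.2. In the divergent library these 3 were at 3.61, 1.47 and 0.803 CPM.

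In Mup3, Mup20 and Mup21 the divergent library was the lowest too. Mup3 had 443, 481 and 885 CPM in libraries labelled Cyp2b-null on HFD, 622, 724 and 342 in WT on HFD, 96.1, 641 and 422 in those labelled Cyp2b-null on ND and 759.8, 418 and 595 in WT on ND. Mup20 had 138, 166 and 342 CPM in libraries labelled Cyp2b-null on HFD, against 99.7, 357 and 401 in those labelled Cyp2b-null on ND, and 204, 369 and 145 in WT on HFD, against 441, 317 and 449.8 in WT on ND. In both genotypes the lowest library apart from the divergent one was on HFD, and the WT diets overlapped. Mup21 stayed within 36.0 to 91.5 CPM in all 12 male libraries, with its lowest value in the divergent one.

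**Figure D1:**
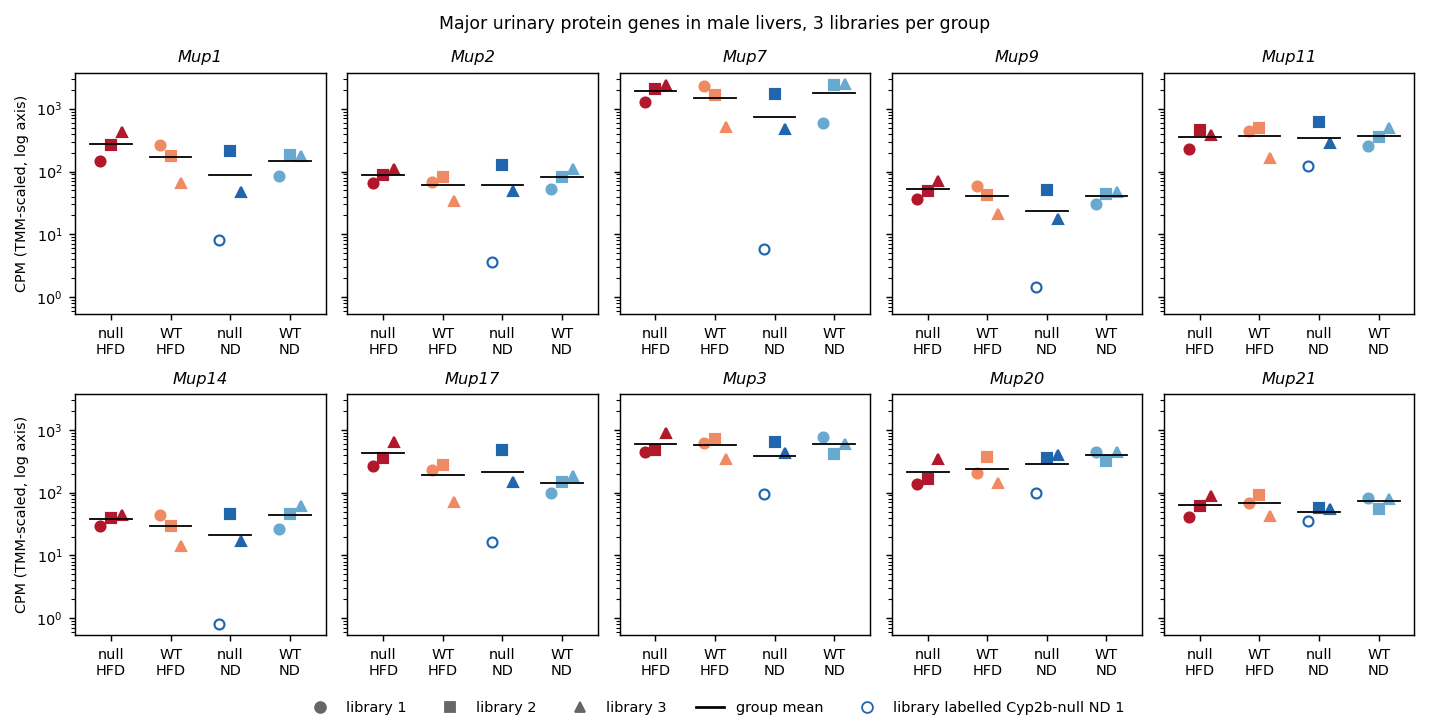
Level of each member in the 12 male liver libraries, in TMM-scaled CPM on a log axis, by group (null: labelled Cyp2b-null); marker shape gives the library number, black lines the mean of 3 libraries and the open circle the divergent library. Mup7 has 44 counts in the divergent library and 478 to 2449 CPM in the others, whereas Mup21 stays within 36.0 to 91.5 CPM in all 12.

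In females Mup3 had the highest level per length. It had 404, 298 and 199.9 CPM in Cyp2b-null on HFD, 523, 345 and 288 in WT on HFD, 581, 489 and 605 in Cyp2b-null on ND and 345, 386 and 384 in WT on ND. The 3 Cyp2b-null libraries on ND were all above the 3 of WT on ND and all above the 3 of Cyp2b-null on HFD. Of all genes tested, 5.18% lay wholly above in the first of these comparisons and 5.05% in the second. Mup20 had 23.5, 10.6 and 7.54 CPM in Cyp2b-null on HFD, 13.5, 12.9 and 14.8 in WT on HFD, 23.4, 31.4 and 35.2 in Cyp2b-null on ND and 16.7, 23.0 and 19.7 in WT on ND, from 20 to 87 counts a library. Here too Cyp2b-null on ND lay above WT on ND without overlap, though narrowly, and WT on HFD lay below WT on ND. The latter held for 3.97% of all genes tested. Mup21 had the lowest level per length, at 2.5 to 11.3 CPM or 5 to 28 counts a library, so its female values carry large counting error.

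The near-identical members behaved otherwise. Mup17 had 168, 126 and 22.2 CPM in Cyp2b-null on HFD, 268, 71.6 and 26.4 in WT on HFD, 50.8, 48.1 and 12.1 in Cyp2b-null on ND and 234, 127 and 1.26 in WT on ND. Library 3 was the lowest of each of the 4 groups, and in WT on ND it rests on 3 counts, for which an exact Poisson 95% interval is 0.26 to 3.68 CPM, counting error only. Mup1 showed the same order, with 95.5, 56.9 and 24.5 CPM in Cyp2b-null on HFD, 173, 61.2 and 16.1 in WT on HFD, 60.8, 57.0 and 19.4 in Cyp2b-null on ND and 122, 106 and 3.36 in WT on ND. Library 3 was also the lowest in all 4 groups for Mup7 and Mup14 and in 3 of 4 for Mup9, and library 1 was the highest in all 4 groups for Mup1, Mup9, Mup14 and Mup17. For Mup2, Mup3, Mup11, Mup20 and Mup21 no library number was the lowest in more than 2 groups. The numbers come from the sample titles, which do not say what they share. In males library 1 was the lowest in 3 of 4 groups for every near-identical member, the divergent library included, and no member had the same lowest number in all 4. Mup11 ran from 75.6 to 416 CPM, Mup7 from 9.24 to 58.7, Mup9 from 6.72 to 52.0, Mup14 from 2.1 to 48.7 and Mup2 from 4.2 to 23.2. For all 5 the lowest value was library 3 of WT on ND.

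**Figure D2:**
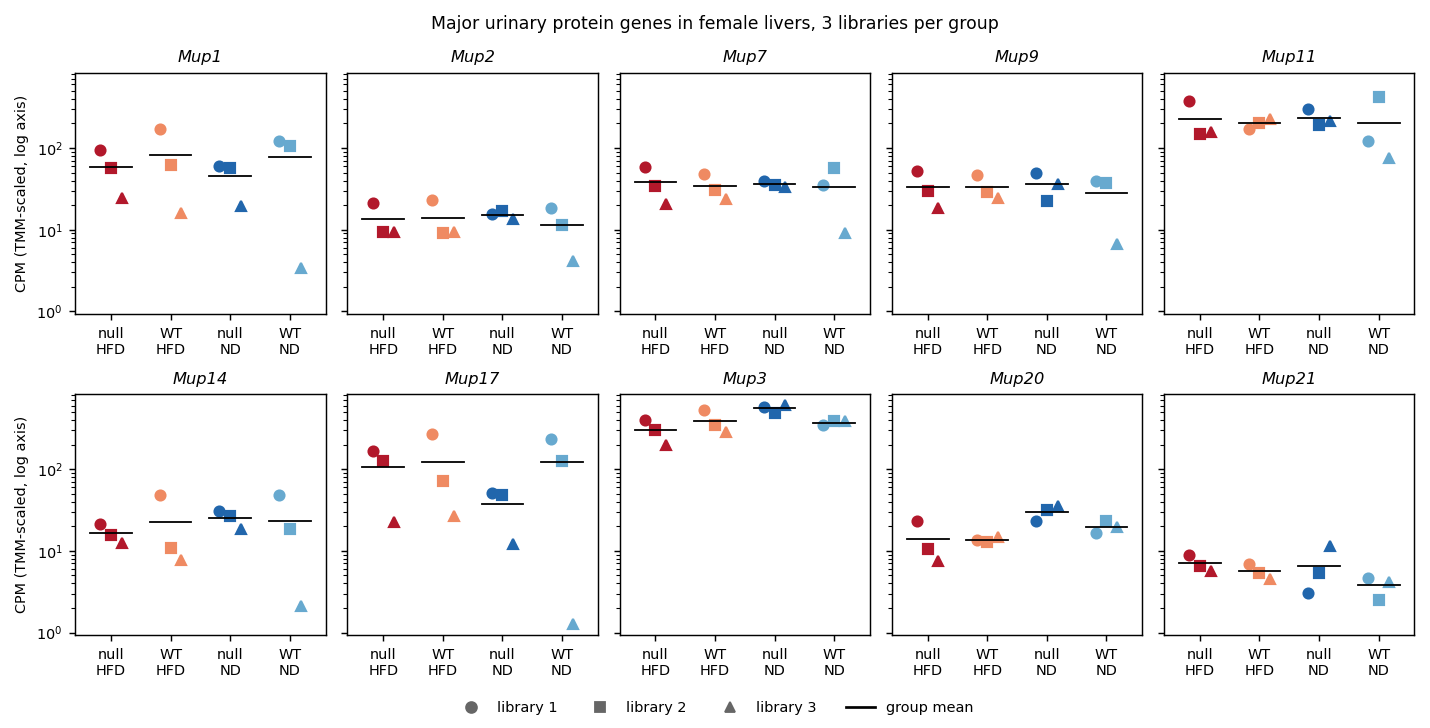
Level of each member in the 12 female liver libraries, in TMM-scaled CPM on a log axis, by group (null: Cyp2b-null); marker shape gives the library number and black lines the mean of 3 libraries. Mup3 and Mup20 are higher in all 3 Cyp2b-null ND libraries than in the 3 WT ND libraries, as are 5.18% of all genes tested. Mup1, Mup7, Mup14 and Mup17 are lowest in library 3 of every group.

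To compare members with each other, levels were divided by transcript length and ordered by the median CPM per kilobase of transcript. In the 11 male libraries it ran from Mup7 (1681) over Mup3 (605), Mup11 (417), Mup20 (369), Mup17 (249), Mup1 (193), Mup21 (90.8), Mup2 (87.0) and Mup9 (47.9) to Mup14 (42.3). With the divergent library the order was the same, from Mup7 (1626) to Mup14 (37.1). Mup7 exceeded Mup3 in 10 of 11 libraries (permutation test on paired log2 ratios, adjusted p = 0.0132 over 18 neighbour pairs, two-sided). Mup11 and Mup20, Mup20 and Mup17, and Mup21 and Mup2 did not differ beyond their spread (adjusted p = 0.157, 0.366 and 0.197). In the 12 female libraries the order was Mup3 (391), Mup11 (211), Mup17 (66.0), Mup1 (63.6), Mup9 (36.5), Mup7 (33.7), Mup14 (20.0), Mup20 (19.6), Mup2 (13.4) and Mup21 (7.98). There the steps from Mup3 to Mup11 (adjusted p = 0.0132), from Mup11 to Mup17 (0.0176), from Mup7 to Mup14 (0.0190) and from Mup2 to Mup21 (0.0226) exceeded the spread, and the other 5 did not. Mup7 was thus the first in males and the sixth in females, and Mup20 the fourth in males and the eighth in females. The neighbours were chosen by their levels in these same libraries, so the p-values are no independent test of the order. These orders inherit the uncertain assignment of shared reads, which the permutation tests do not address, and between them sex and kit cannot be told apart. The male level of Mup20 is a sum of 2 rows, of which the first held 28.7% of its counts, whereas in females it has 1 row. On the first row alone its male group means were 62.2 to 103 CPM, so its male place rests on the summing. Mup3 also has 2 male rows, with 47.5% of its counts on the first. That row alone averaged 269 CPM in WT on ND, 274 in WT on HFD and 289 in labelled Cyp2b-null on HFD. Mup11, on 1 row, averaged 367, 366 and 355 CPM in these groups. The male place of Mup3 above Mup11 therefore rests on the summing too.

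The genotype comparison on ND asks whether loss of the 3 Cyp2b genes goes with other Mup levels on chow. In females Mup3 averaged 558 ± 61.1 CPM in Cyp2b-null livers and 372 ± 23.2 CPM in WT livers (SD, n = 3 each), a log2 difference of 0.59 ± 0.26 (SE), with a 95% interval of 0.03 to 1.14. Mup20 averaged 30.0 ± 5.99 CPM in Cyp2b-null livers and 19.8 ± 3.14 CPM in WT livers, a log2 difference of 0.60 ± 0.33. Neither passed edgeR's quasi-likelihood test over all genes (adjusted p = 0.744 and 0.818). These 2 were the members whose libraries lay wholly above those of WT, as did 5.18% of all 11830 genes tested, and no member lay wholly below, as did 6.1%. None of the 10 was called, 1 had an unadjusted p below 0.05 (Mup3), DESeq2 called none either, and 0.127% of all genes were called. The largest estimate in size was that of Mup17, -1.71 ± 1.36, with an interval of -4.79 to 1.37, and it was -2.29 ± 1.10 without library 3 and -0.78 ± 1.55 without library 1 of WT on ND. The fit with a term for the library sides put Mup3 at 0.54 ± 0.25 and Mup20 at 0.63 ± 0.33. In all, 8 of the 10 estimates were above 0, with a median of 0.30, beside -0.02 over all genes.

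In males on ND, 1 of 10 estimates was above 0 with the divergent library (median -0.59, all genes 0.06) and 3 were without it (median -0.18, all genes 0.02). Mup7 averaged 739.8 ± 894 CPM in livers labelled Cyp2b-null and 1803 ± 1042 CPM in WT livers, a log2 difference of -1.28 ± 1.16, -0.70 ± 0.80 without the divergent library and -2.93 ± 1.28 without library 2 of the same group (edgeR, adjusted p = 0.141). Mup17 went the other way, at 0.57 ± 0.83 with and 1.12 ± 0.63 without it, and turned to -0.82 when the second library of the same group was left out. No member was called with the divergent library or without it (edgeR's smallest adjusted p = 0.382 for Mup21 and 0.39 for Mup17), none had an unadjusted p below 0.05 in these 2 fits and DESeq2 called none, while 0.0134% and 0.0462% of all genes were called. The libraries of the 2 groups overlapped for every member in both fits, against non-overlap in 10.3% higher and 12.5% lower of all genes with the divergent library and 20.4% and 19.7% without it. Without library 2 of the labelled group, in a fit that keeps the divergent library, Mup1, Mup7, Mup9 and Mup14 had an unadjusted p below 0.05, as did 4850 of 15194 genes. The summed hepatocyte marker level was 48254 to 98299 CPM in livers labelled Cyp2b-null and 130213 to 167211 CPM in WT livers on ND, without overlap, and its part in the male values was not tested.

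On HFD the 95% interval of every member held 0 in both sexes. In males labelled Cyp2b-null Mup17 averaged 421 ± 190.3 CPM and in WT males 191 ± 107 CPM, the largest difference of a member at 1.14 ± 0.84 on the log2 scale (edgeR, adjusted p = 1). Without the divergent library, which enters this comparison only through the shared estimate of the spread, its standard error was 0.58 and its adjusted p 0.984. Of the 10 male estimates 7 were above 0, from -0.15 (Mup20) upward, with a median of 0.36, beside -0.01 over all genes. In females the estimates ran from -0.50 (Mup1) to 0.32 (Mup21), with 4 of 10 above 0. On HFD neither sex had a called member, none had an unadjusted p below 0.05 and DESeq2 called none, with 0% of all genes called in males (315 of 14873 had an unadjusted p below 0.05, and DESeq2 called 18) and 0.0169% in females. No member's groups were free of overlap in either sex, against 4.67% higher and 3.6% lower of all genes in males (4.68% and 3.61% without the divergent library) and 3.38% and 3.59% in females.

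The diet comparison within genotypes asks whether 10 weeks of HFD go with other Mup levels. In female Cyp2b-null mice Mup3 averaged 301 ± 102 CPM on HFD and 558 ± 61.1 CPM on ND, a log2 difference of -0.89 ± 0.26 with an interval of -1.45 to -0.34. Mup20 averaged 13.9 ± 8.45 CPM on HFD and 30.0 ± 5.99 CPM on ND, a difference of -1.11 ± 0.34 with an interval of -1.82 to -0.39. These were the 2 smallest unadjusted p-values of any member in the fits of all libraries (0.00371 and 0.00483), and both had an adjusted p of 0.963 in edgeR. Over the alternatives the adjusted p went down to 0.0663 for Mup3 and 0.126 for Mup20, both without the filter on low counts, and up to 1. Among all genes 0% were called (568 of 11830 had an unadjusted p below 0.05, and DESeq2 called 3 genes and no member). Mup3 was the only member whose groups did not overlap, as was true in this direction of 5.05% of all genes, with 6.18% in the other. Leaving out single libraries moved Mup20 between -1.73 (without library 1 of Cyp2b-null on HFD) and -0.80 (without library 3), while the fit with a term for the 2 library sides put Mup3 at -0.85 ± 0.25 and Mup20 at -1.14 ± 0.33. The other 8 members lay between -0.62 (Mup14) and 1.51 (Mup17, SE 1.36). In the same libraries the summed level of 11 Kupffer cell and macrophage markers was 452 to 781 CPM on HFD and 224 to 408 CPM on ND, without overlap and with none of the 11 at 0, and that of 9 hepatocyte markers 85684 to 121967 CPM on HFD and 102627 to 147894 CPM on ND. Their part in the Mup3 and Mup20 values was not tested.

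In WT females no such pair of differences was seen. Mup3 averaged 386 ± 123 CPM on HFD and 372 ± 23.2 CPM on ND, a log2 difference of 0.05 ± 0.26, or -0.24 without library 1 on HFD. Mup20 averaged 13.8 ± 0.986 CPM on HFD and 19.8 ± 3.14 CPM on ND, a difference of -0.52 ± 0.34, and was the only member without overlap, as were 3.97% of all genes in this direction and 3.89% in the other. No member was called (edgeR, adjusted p = 1 for each, and DESeq2 none) or had an unadjusted p below 0.05, and 0.0169% of all genes were called, or 0 with the library number as a block. In WT males estimates ran from -0.75 ± 0.52 (Mup20, which averaged 239 ± 116 CPM on HFD and 402 ± 74.1 CPM on ND) to 0.43 ± 0.83 (Mup17). No member was called (DESeq2 none), none had an unadjusted p below 0.05 with all 12 libraries and none was free of overlap, while 0% of all genes were called (966 at an unadjusted p below 0.05, 77 by DESeq2) and 0.72% in the fit without the divergent library, where Mup20's adjusted p was 0.327. The summed hepatocyte marker level was 101469 to 121304 CPM on HFD and 130213 to 167211 CPM on ND in these males, and its part was not tested. Non-overlap held for 12.9% higher and 10.1% lower of all male genes, and for 12.8% and 10.1% in the fit without the divergent library.

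In males labelled Cyp2b-null the diet estimates turned on the divergent library. With it, 9 of 10 were above 0, with a median of 0.73 (all genes -0.01), and without it 7, with a median of 0.22 (all genes -0.01). Mup1 averaged 277 ± 137 CPM on HFD and 88.2 ± 107 CPM on ND, or 128 ± 114 CPM (n = 2) without it, and its log2 difference was 1.65 ± 0.87 with and 1.11 ± 0.78 without it. Without library 2 of the same group it was 3.32 ± 0.83, with the smallest adjusted p of any male member in any fit, 0.0679 in edgeR. Mup20 was the lowest in both fits, at -0.41 ± 0.52 with and -0.82 ± 0.41 without it, and in the second its 3 HFD libraries lay below both ND libraries, as was true of 10% of all genes with only 2 libraries on ND (9.88% lay wholly above). With the divergent library no member was free of overlap, against 6.37% higher and 5.72% lower of all genes. The test called no member (edgeR's smallest adjusted p = 0.483 for Mup1 and 0.822 for Mup20, and DESeq2 none). None had an unadjusted p below 0.05 with or without the divergent library. Without library 2, in a fit that keeps the divergent library, Mup1, Mup2, Mup7, Mup9, Mup14 and Mup17 had one, as did 3929 of 15194 genes. Of all genes 0% were called with all male libraries (1657 at an unadjusted p below 0.05, 112 by DESeq2) and 0.0859% without the divergent library.

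**Figure D3:**
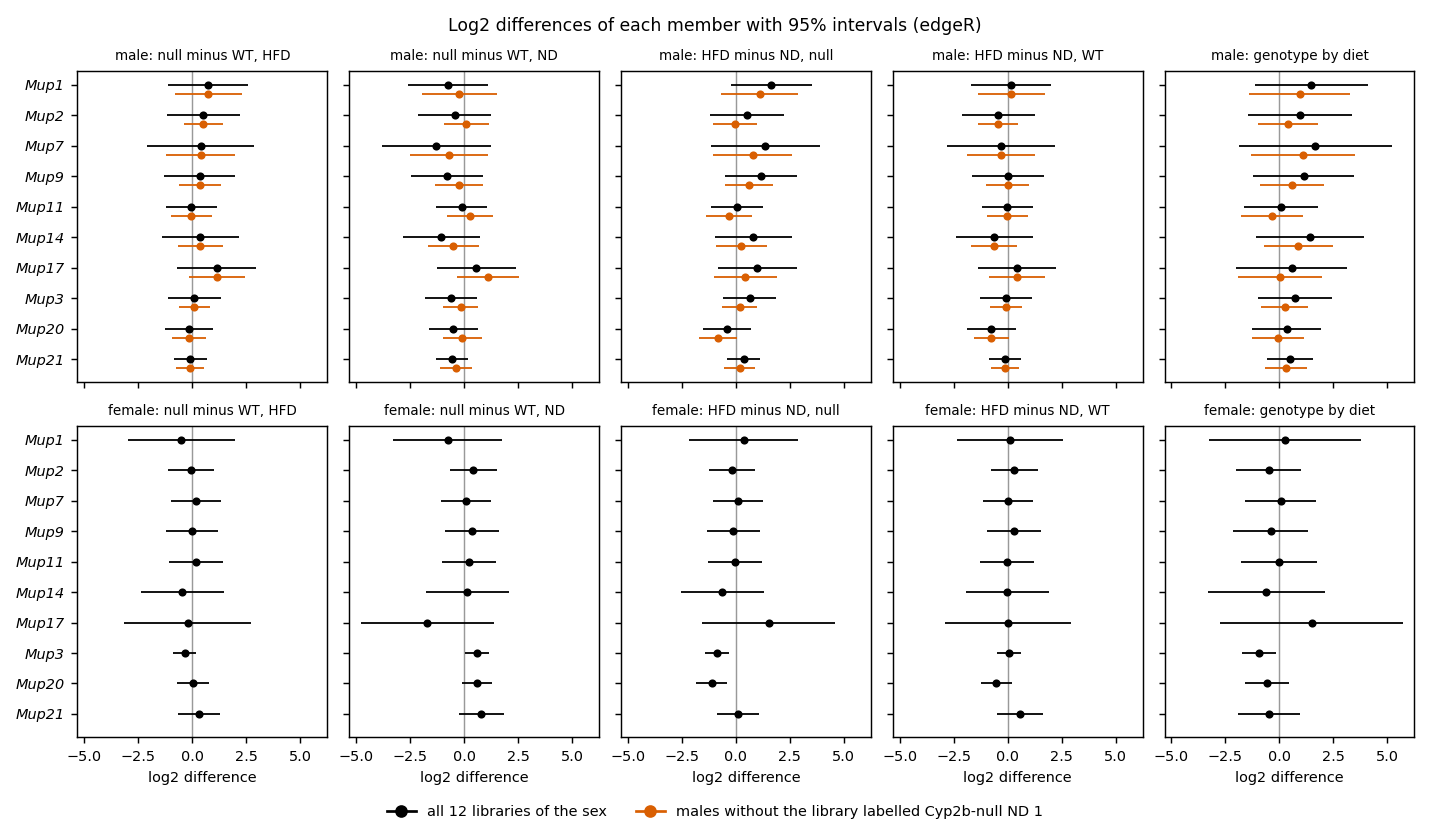
Log2 difference (point) and 95% interval (line) of each member in the 5 comparisons of each sex, from edgeR; black uses all 12 libraries of the sex and orange leaves out the divergent male library. The intervals of Mup3 and Mup20 for HFD minus ND in female Cyp2b-null mice, -1.45 to -0.34 and -1.82 to -0.39, lie below 0 before adjustment.

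The interaction, the genotype difference on HFD minus that on ND, was largest against its error for Mup3 in females. It was -0.95 ± 0.37, with an interval of -1.73 to -0.16, an unadjusted p of 0.0208 and an adjusted p of 1 in edgeR. Without library 1 of WT on HFD it was -0.65 ± 0.34, and the fit with the side term gave -0.89 ± 0.35. Mup20 stood at -0.59 ± 0.48 and Mup17, with a far wider interval, at 1.49 ± 1.87. In males all 10 estimates were above 0 with the divergent library (median 0.83, all genes -0.05) and 8 without it (median 0.35, all genes -0.02). Mup7 was at 1.67 ± 1.62 with and 1.09 ± 1.06 without it. Neither sex had a called member (DESeq2 none), 1 (Mup3, female) had an unadjusted p below 0.05, and 0% of female and 0% of male genes were called (342 and 691 at an unadjusted p below 0.05, 11 and 18 by DESeq2), or 0.00661% of male genes without it.

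The sum over members does not depend on how reads are split among the 10, though reads shared with other Mup genes still bear on it. It gave log2 ratios of group means in males of 0.33 for labelled Cyp2b-null over WT on HFD, -0.74 on ND, 0.87 for HFD over ND in labelled Cyp2b-null and -0.21 in WT. Without the divergent library the ND ratio was -0.25 and the diet ratio in labelled Cyp2b-null 0.37. The sum over all Mup symbols gave 0.34, -0.66, 0.81 and -0.18 in the same order with all male libraries. In females the ratios over the 10 were -0.17, 0.20, -0.33 and 0.03 in that order, and those over all Mup symbols -0.10, 0.06, -0.11 and 0.05. For Mup3, Mup20 and Mup21 together, Cyp2b-null females averaged 322 ± 112 CPM on HFD and 595 ± 63.7 CPM on ND, against 405 ± 123 on HFD and 395 ± 25.2 on ND in WT females. Nearly all of this sum is Mup3, and Mup21 had a diet difference of 0.09 ± 0.46 in Cyp2b-null females. For the 7 near-identical members the 4 averages were 493 ± 273, 431 ± 107, 509.6 ± 235 and 498 ± 351 CPM in that order, apart by less than their SDs. The difference between the 2 sums was not tested.

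**Figure D4:**
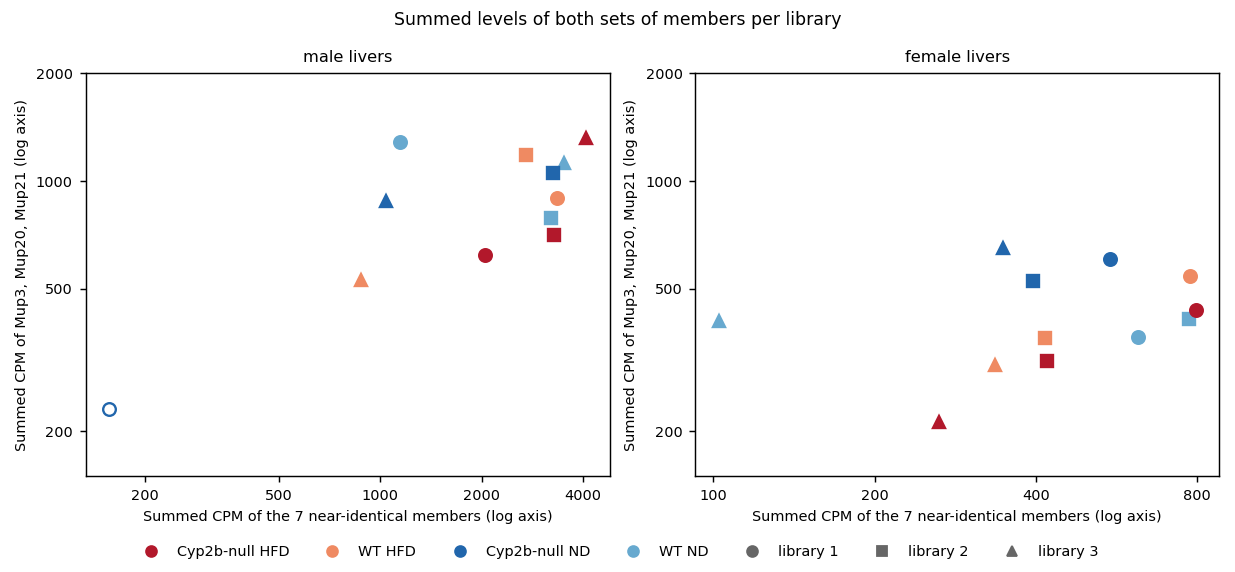
Summed CPM of the 7 near-identical members (x) against that of Mup3, Mup20 and Mup21 (y) in each library, both on log axes, males left and females right; colour gives the group, marker shape the library number and the open circle the divergent library. In females the Cyp2b-null ND libraries lie above the WT ND libraries on the y axis, at 526 to 651 CPM, whereas along the x axis library 3 is the lowest of each group.

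The near-identical members varied together in males, and less evenly in females. Correlations of log2 CPM, taken after subtracting each group's mean, are descriptions over libraries that share depth and scaling. Over the 11 male libraries the 21 pairs of near-identical members had r from 0.89 to 0.99 (median 0.93), and the 21 pairs of 1 member of each kind from 0.28 to 0.73 (median 0.53). Mup3, Mup20 and Mup21 had r of 0.83 to 0.94 with each other, although the transcript of Mup20 is closer in sequence to the 7 than to Mup3 or Mup21. Over the 12 female libraries the near-identical pairs had a median r of 0.86, with the lowest value, 0.31, between Mup11 and Mup14, and mixed pairs a median of 0.26 and a highest value of 0.52. There Mup3, Mup20 and Mup21 had r of 0.40 to 0.62 with each other, with 0.40 for Mup3 and Mup21, which overlaps the mixed pairs. Mup11 was the exception among the near-identical genes in females, with r of 0.31 to 0.49 to Mup2, Mup14 and Mup17 and the 6 lowest values of the 21 pairs. The part of reads shared between near-identical genes in these r values was not tested.

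**Figure D5:**
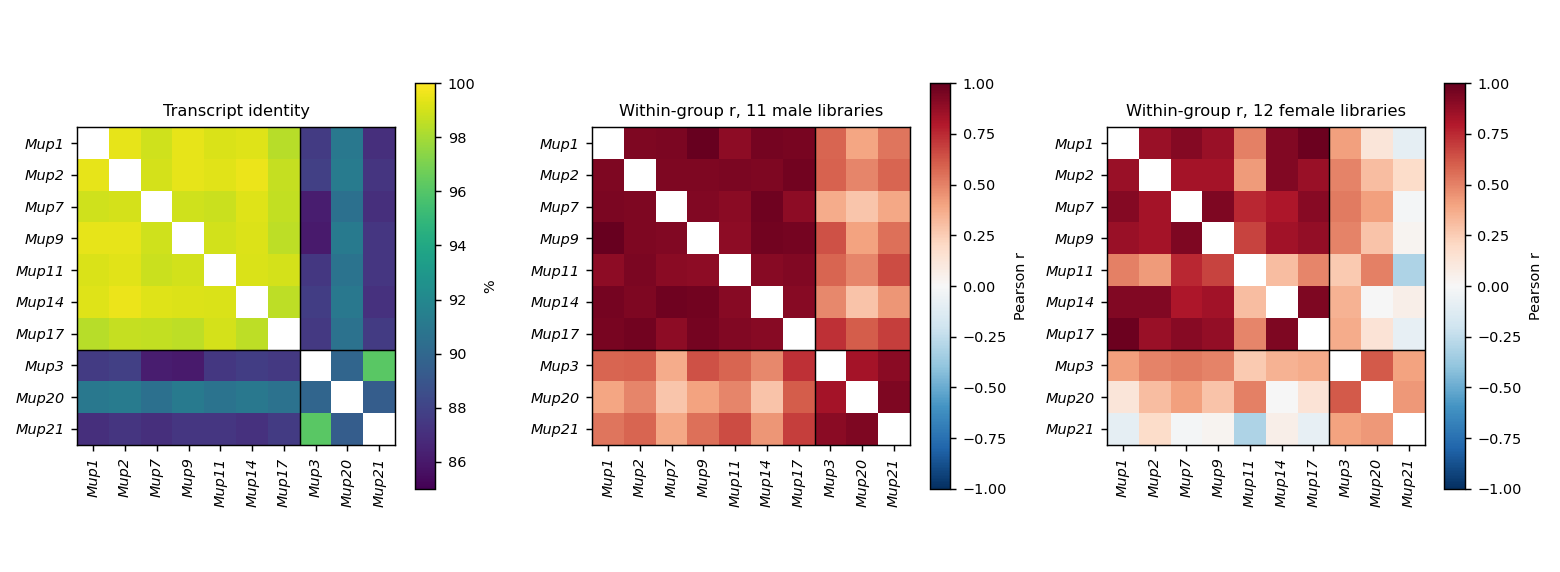
Left, percent identity of the members' transcripts; middle and right, Pearson r of log2 CPM between members after subtracting group means, over 11 male and 12 female libraries. Black lines separate the 7 near-identical members from Mup3, Mup20 and Mup21, and r within the 7 has a median of 0.93 in males and 0.86 in females.

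Outside the family, the genes most like the summed Mup level were chosen by the lower of the 2 Pearson correlations over the 11 male and 12 female libraries, among 9903 genes. They were Rarres1, with r of 0.71 in males and 0.71 in females, Ndufaf5 (0.69 and 0.71), Cpb2 (0.68 and 0.68), Mipol1 (0.67 and 0.78) and Mrpl42 (0.66 and 0.67). Group means were not subtracted for these r values, unlike those between members. The 5 are the extremes of many genes over few libraries, and whether their r values exceed chance was not tested. Ndufaf5 is an assembly factor of mitochondrial complex I, Cpb2 a secreted liver carboxypeptidase that slows fibrin breakdown, and Mrpl42 a protein of the mitochondrial ribosome. None of the 5 was called in any comparison.

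Of the pathway that drives Mup transcription, 18 growth hormone and STAT5 genes in males and 17 in females could be tested, and none passed the test in either direction in any of the 5 comparisons of a sex, also without the divergent library. Socs2, a STAT5 target that dampens growth hormone signalling, had the smallest p on HFD in males, with 8.89 ± 2.32 CPM in livers labelled Cyp2b-null and 41.3 ± 15.4 CPM in WT livers (edgeR, log2 difference -2.22 ± 0.47, adjusted p = 0.878). In females it had the smallest p on ND, with 131 ± 73.3 CPM in Cyp2b-null livers and 25.1 ± 6.93 CPM in WT livers (log2 difference 2.38 ± 0.58, adjusted p = 0.251). Cish, another STAT5 target of the same kind, had 17.8 ± 9.16 CPM in males labelled Cyp2b-null and 72.2 ± 56.9 CPM in WT males on ND (log2 difference -2.03 ± 0.77, adjusted p = 0.226). The median of the list on ND was -0.20 in males and 0.20 in females, beside 0.06 and -0.02 over all genes.

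None of the 18 liver transcription factors tested in each sex was called either. Zbtb20, a zinc finger repressor of liver genes, had 208 ± 18.8 CPM in males labelled Cyp2b-null and 113 ± 18.7 CPM in WT males on ND (log2 difference 0.87 ± 0.21, edgeR's adjusted p = 0.184). Esr1, the oestrogen receptor alpha, had 34.5 ± 7.01 CPM in males labelled Cyp2b-null and 16.0 ± 1.76 CPM in WT males on HFD (log2 difference 1.11 ± 0.26, adjusted p = 0.983). Cebpb, a factor of the acute phase, had 309 ± 68.2 CPM in female Cyp2b-null livers and 125 ± 32.8 CPM in female WT livers on ND (log2 difference 1.31 ± 0.30, adjusted p = 0.128).

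Genes with a known sex bias in liver share the growth hormone control of the Mup genes. Of 21 male-biased genes tested in males and 13 in females, none was called with all libraries. Elovl3, a fatty acid elongase, had 45.4 ± 24.7 CPM in males labelled Cyp2b-null and 391 ± 171 CPM in WT males on ND (log2 difference -3.10 ± 0.53, edgeR's adjusted p = 0.122). With all libraries 0% of all genes were called between the diets of WT males, and without the divergent library 0.72%. In the second fit 2 of the 21 fell with HFD, both at low levels, namely Gstp1, a glutathione transferase (1.38 ± 0.62 CPM on HFD and 6.57 ± 0.772 CPM on ND, adjusted p = 0.0206), and Cspg5, a proteoglycan (0.25 ± 0.128 and 1.9 ± 0.823 CPM, adjusted p = 0.0351). Among 19 female-biased genes tested in males and 24 in females, Cyp2a4, a steroid hydroxylase, rose on ND in both sexes. The calls on ND made up 0.0134% of all male and 0.127% of all female genes. Cyp2a4 had 485 ± 259 CPM in males labelled Cyp2b-null and 3.02 ± 0.481 CPM in WT males (log2 difference 7.33 ± 0.68, adjusted p = 0.00226, and 6.99 ± 0.70 with adjusted p = 0.0121 without the divergent library). Fitted on the 2 male ND groups alone it was no longer called (adjusted p = 0.151). In females Cyp2a4 had 1281 ± 171 CPM in female Cyp2b-null and 409.9 ± 96.9 CPM in female WT livers (log2 difference 1.64 ± 0.23, adjusted p = 0.00679). Prom1, a membrane protein of epithelial progenitors, fell to 1.42 ± 0.17 CPM in female Cyp2b-null livers, against 14.8 ± 4.88 CPM in female WT livers on ND (adjusted p = 0.00679), a call lost without library 3 of WT (adjusted p = 0.0784) or library 3 of Cyp2b-null (adjusted p = 0.0504). Without the divergent library Cyp3a41a and Cyp3a44, P450 enzymes of the Cyp3a family, fell with HFD in both male genotypes, Cyp3a41a by 2.51 (WT, adjusted p = 0.00314) and 2.45 (labelled Cyp2b-null, adjusted p = 0.00964) on the log2 scale. In that fit 0.72% of all genes were called between the diets of WT males and 0.0859% between those of males labelled Cyp2b-null. Cyp2a and Cyp3a genes have near copies, so their single values share the uncertainty of the Mup genes. The Cyp2a genes also lie beside the deleted Cyp2b genes, and the part of the deletion in the Cyp2a4 values was not tested.

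The 9 lipocalins tested outside the family and 12 genes of gluconeogenesis and lipogenesis, pathways in which Mup1 has been studied, gave no call in any comparison of either sex. Ptgds, a lipocalin-type prostaglandin synthase, had 42.6 ± 68.2 CPM in males labelled Cyp2b-null and 3.26 ± 2.45 CPM in WT males on ND (edgeR's adjusted p = 0.213). Me1, malic enzyme, had 172 ± 17.8 CPM in female Cyp2b-null livers and 111 ± 9.04 CPM in female WT livers on ND (log2 difference 0.62 ± 0.17, adjusted p = 0.28). Scd1, a fatty acid desaturase, had 2424 ± 278 CPM in female Cyp2b-null livers and 4083 ± 372 CPM in female WT livers on HFD (log2 difference -0.75 ± 0.21, adjusted p = 1). All 12 metabolic genes had estimates above 0 in Cyp2b-null females on ND, with a median of 0.38, and 8 of the 12 had estimates below 0 with HFD in Cyp2b-null females, with a median of -0.60, beside -0.02 and 0.01 over all genes. Those 2 comparisons share the Cyp2b-null ND libraries.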

How the data were processed

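Liver RNA of 24 libraries was measured by RNA-seq in 2 tables, 1 per sex, of 12 libraries. The values are raw counts per gene symbol as deposited by the authors. The submitters' processing notes name FastQC, Trimmomatic, GSNAP, Subread and edgeR with build GRCm38.p5; their order, settings, versions, strand use, read length and handling of reads that match several genes are not given here. Among the male symbols 1806, with 7 of the 10 members, are on more than 1 row, and their rows were summed; Mup20's first row held 28.7% of its counts. The female table repeats 2 symbols. Blank identifiers were absent (0 rows). Within each table the 12 libraries were fitted with edgeR 4.0.16 in R 4.3.3 (TMM scaling, filterByExpr, robust quasi-likelihood test, 1 term per group), and p-values were Benjamini-Hochberg adjusted over the 14873 genes tested in males (15139 without the divergent library) and the 11830 in females, with 0.05 as the threshold. No test was made between the tables. DESeq2 1.42.0, RLE scaling, no filter, fits of the compared groups alone and leaving out each library were alternatives. Neighbours in the order of levels were compared by two-sided permutation tests over the same libraries that set the order. The fit was also run on counts simulated from its own means and dispersions, with an outcome not given here. Those counts held no divergent library, library sides or shared reads, so that run does not bear on them. Library totals allow the members 1215 counts or more in each library together, and intervals on counts cover counting error only. Libraries of 1 group differed by more than sampling noise in every pair (lowest chi-square per degree of freedom 10.9 in males and 6.19 in females).

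The members and the gene lists were chosen with earlier results of these data known. Named genes were all members, the targeted genes, the list genes called or, where a list had no call in a sex, the one with the smallest p in a genotype comparison, some of which are printed, and the 5 genes most like the summed level. The library numbers come from the titles. Same-numbered libraries deviated together (r over 0.1 in every pair) only between the diets of WT, with r from 0.11 to 0.127 in males and from 0.139 to 0.564 in females. Sequences come from RefSeq (GRCm38.p6), promoter windows being given for 8 members, and from GENCODE transcripts. Python packages were pandas 2.3.3, NumPy 2.4.6, SciPy 1.17.1, Biopython 1.88 and matplotlib 3.10.9.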

Additional observations from a re-analysis of the deposited data

How the results depend on the processing

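No member was called under any alternative (0 of 10 in each of 152 alternative counts), the replicate block included, where the value was again 0. Signs were less stable. Of 1520 alternative values of the 100 member differences, 123 had the other sign, in 51 of the differences, 105 of them from leaving out 1 library and 18 from other alternatives. The differences concerned were up to 0.61 in size on the log2 scale in the fit with all libraries. That is the size of those of Mup3 (0.59) and Mup20 (0.60) between the female genotypes on ND, whose sign held. Among the differences the report gives, the sign turned over left-out libraries for Mup1 in females on HFD (-1.04 to 0.62), Mup3 between the diets of WT females (-0.24 to 0.23), Mup21 between the diets of Cyp2b-null females (-0.26 to 0.74), Mup20 in males on HFD (-0.66 to 0.30), Mup17 in males on ND (-0.82 to 1.12) and the male interaction of Mup11 (-0.33 to 0.84). The cause was not tested.

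Reading only the first row of each repeated male symbol lowered mean levels by construction, for Mup2 to 52.2 CPM in labelled Cyp2b-null and 35.9 in WT on HFD, for Mup3 to 289 in labelled Cyp2b-null and 274 in WT on HFD and 269 in WT on ND, for Mup20 to 62.2 in labelled Cyp2b-null and 79.1 in WT on HFD and 83.5 in labelled Cyp2b-null and 103 in WT on ND, and for Mup21 to 51.8 in WT on ND. Leaving out mitochondrial genes put Mup3 at 397 CPM in female WT on ND. The other 589 mean levels and all 127 summed ratios moved by less than the spread.

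Counts of all genes called were less stable. In the order genotype on HFD, genotype on ND, diet in Cyp2b-null, diet in WT and interaction, edgeR called 0, 2, 0, 0 and 0 male genes and 2, 15, 0, 2 and 0 female genes. DESeq2 called 18, 427, 112, 77 and 18 male and 2, 76, 3, 19 and 11 female genes. With no filter the counts were 0, 35, 26, 6 and 0 in males and 12, 121, 30, 38 and 23 in females. With the compared groups alone males had 3, 0, 0 and 21 and the female WT diets 0. Leaving out the second male library labelled Cyp2b-null on ND gave 724 genes between the genotypes on ND and 28 between the diets, and leaving out single female libraries gave 5 at the lowest on ND. RLE scaling gave 1 for the female WT diets, leaving out mitochondrial genes 1 for the female Cyp2b-null diets, and the term for the library sides, chosen after seeing the data, 1, 43, 1, 15 and 2 in females. With the replicate block the genotype comparison on ND had 1 gene in males and 8 in females, and no member's call changed. The depth of the female libraries leaves Mup21 at 5 to 28 counts, so differences in it were hardly detectable there.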
